A study of Drosophila melanogaster with 30 samples.

Results

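The genes described here encode the proteins that mark and license replication origins in the wing imaginal disc, the larval epithelium that becomes the adult wing. They are 10 genes: Orc1, Orc2, Orc5 and Orc6 of the origin recognition complex (ORC), and Mcm2, Mcm3, dpa, Mcm5, Mcm6 and Mcm7 of the Mcm helicase. Each was read from the interval of the RNA tables that matched its RefSeq gene best, with a reciprocal overlap above 0.9. All 10 matched over their whole length in both sexes, among 8854 genes that were named in both tables. Mcm3 and Mcm6 lie on the X chromosome and the other 8 on autosomes, so that the helicase joins subunits from both kinds of chromosome. The rule uses complex membership, and it was set with earlier results of these data known.

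ORC binds DNA and, with the loading factors Cdc6 and Cdt1 (the product of dup), places the ring-shaped Mcm helicase on chromatin before S phase. The ring holds Mcm2, Mcm3, Mcm4 (the product of dpa, named disc proliferation abnormal), Mcm5, Mcm6 and Mcm7 in equal numbers, and in S phase it unwinds DNA at the fork. In Drosophila males the male-specific lethal (MSL) complex acetylates histone H4 at lysine 16 along the X and raises its transcription, a process called dosage compensation.

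Wing discs came from newly wandering third-instar Drosophila melanogaster larvae that lacked the endogenous replication-dependent histone cluster on both homologues (ΔHisC, UAS-2xEYFP over ΔHisC, twi-GAL4). The fluorescent reporter, driven by the mesodermal twi promoter, served to pick these larvae from their siblings. In place of the cluster they carried 12 copies of the 5 kb histone repeat, either wild type (HWT), with lysine 16 of H4 changed to arginine (H4K16R), or with lysine 9 of H3 changed to arginine (H3K9R). HWT is therefore a control that also carries the deletion and the transgene, whereas the yw strain keeps its own histone genes. RNA came from male and from female HWT and H4K16R discs, with 3 libraries of 30 discs in each group. Repli-seq gave replication timing as the coverage of sorted S-phase DNA over that of G1 DNA, with 2 S-phase libraries and 1 G1 library per group, for HWT and H4K16R of both sexes and for H3K9R and yw females.

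The files give 1 value per interval and comparison for RNA and 1 per window and group for timing, so values of single libraries, their depth and expression levels are not known here. Fold changes are on the log2 scale and were read as H4K16R over HWT, since the tables do not state the numerator. An entry was called at an adjusted p under 0.05 over all entries of its table. Standard errors (SE) were recovered from each fold change and its p-value. Discs are bulk tissue, in which fewer cells of a type and less RNA per cell cannot be told apart.

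In H4K16R males the X-linked helicase subunits fell and no autosomal member was called. Mcm3 (X:5323855-5326738, dm6) had a log2 fold change of -0.73 (SE 0.18, adjusted p = 0.00138) per the authors' deposited table for males, a level of 0.602 of that in HWT. Mcm6 (X:6674387-6677176), some alleles of which cause female sterility in Drosophila through failed amplification of the eggshell genes, had -0.51 (SE 0.13, adjusted p = 0.00174) per the authors' deposited table, a level of 0.700 of HWT. Lower entries made up 10.3% of the male table and 44.6% of its X-linked entries, so a call in this direction was common on the X. It was rare on the autosomes, where 321 of 9472 entries on chromosomes 2 and 3 were called lower and 577 higher. The median of 1901 X-linked entries was -0.43 per the authors' deposited table. Mcm3 lay 0.30 below that median, with 17.4% of X-linked entries lower still. Mcm6 lay 0.08 below it, with 37.7% of X-linked entries lower. Mcm6 was thus near the middle of the X-linked entries and Mcm3 in their lower part. Fat body markers were also lower in these males (6 of 6 measured, median -2.62 per the authors' deposited table), and their part in the values of the helicase genes was not tested.

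**Figure D1:**
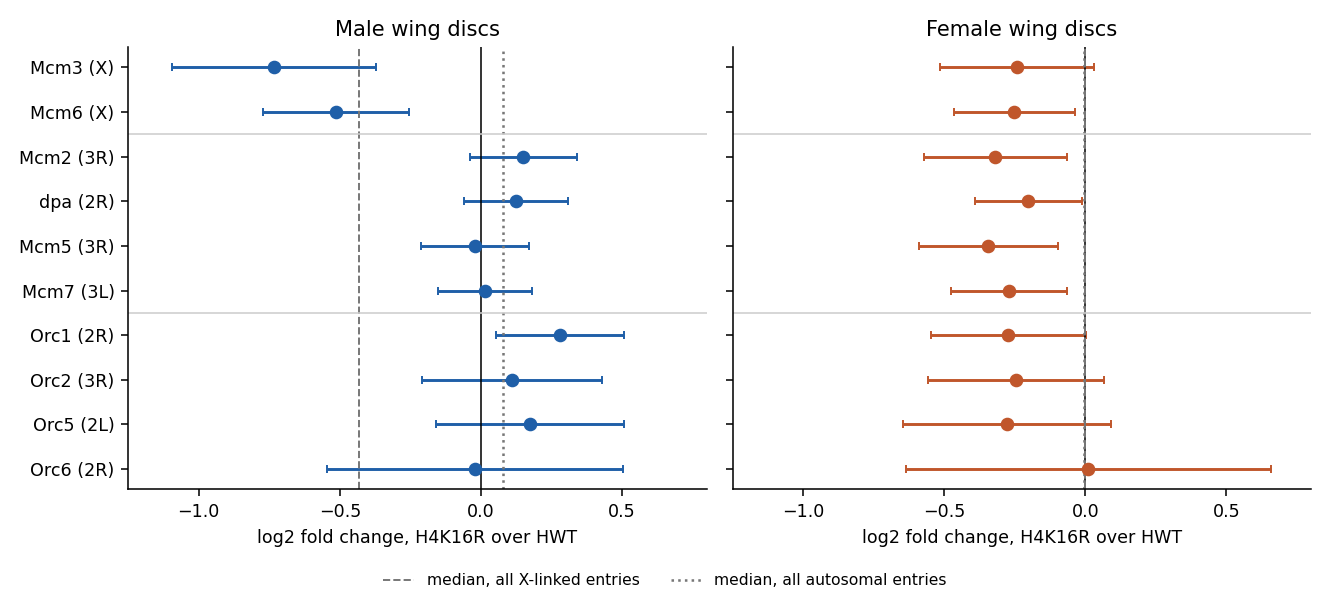
Log2 fold changes of the 10 genes between H4K16R and HWT wing discs (horizontal axis, 1 panel per sex), as points with 95% intervals from the recovered standard errors; the chromosome arm is in parentheses, and dashed and dotted lines give the medians of all X-linked and all autosomal entries. In males Mcm3 and Mcm6 stand apart at -0.73 and -0.51, whereas in females every gene but Orc6 lies between -0.34 and -0.20.

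The autosomal helicase subunits lay close to 0 in males. Mcm2 (3R:8264970-8267924), the subunit whose tail binds histones H3 and H4 in yeast and human, had a log2 fold change of 0.15 (SE 0.10, adjusted p = 0.32) per the authors' deposited table. The Mcm4 gene dpa (2R:7496702-7500145), whose mutants have defective imaginal discs, had 0.12 (SE 0.09, adjusted p = 0.42) per the authors' deposited table. Mcm5 (3R:10788524-10791150) and Mcm7 (3L:8891596-8894310) had -0.02 (SE 0.10) and 0.01 (SE 0.09) per the authors' deposited table. These 4 values span 0.17 and lie on both sides of the median of all entries on chromosomes 2 and 3, which was 0.08. Measured from that median Mcm7 lies at -0.06 instead of above 0.

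The ORC genes showed no called change in males. Orc1 (2R:7522437-7525716), the ATPase subunit whose abundance varies through the fly cell cycle, had the highest value of the 10 genes at 0.28 (SE 0.12, adjusted p = 0.085) per the authors' deposited table. Orc2 (3R:13964885-13967075) and Orc5 (2L:13829837-13831576) had 0.11 (SE 0.16) and 0.17 (SE 0.17) per the authors' deposited table. Orc6 (2R:9845458-9846485), which in Drosophila also acts in cytokinesis, had -0.02 with an SE of 0.27, the largest of the 10 genes. Of the 10 genes, 0 were called higher in males by edgeR, where 5.35% of all entries were. At a recovered unadjusted p under 0.05, 1 was higher, Orc1, where 11.5% of all entries were. For Orc6 the interval from -0.55 to 0.50 covers the sizes seen for Mcm6 and Orc1, so a change of that size was not detectable.

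In H4K16R females the same genes lay slightly below 0 together, and none was called. The log2 fold changes per the authors' deposited table for females were -0.34 for Mcm5 (SE 0.13), -0.32 for Mcm2 (SE 0.13), -0.27 for Mcm7 (SE 0.10), -0.25 for Mcm6 (SE 0.11), -0.24 for Mcm3 (SE 0.14) and -0.20 for dpa (SE 0.10). The ORC genes Orc5, Orc1 and Orc2 had -0.28 (SE 0.19), -0.27 (SE 0.14) and -0.24 (SE 0.16), and Orc6 had 0.01 (SE 0.33), per the authors' deposited table. These values correspond to levels between 0.788 and 0.869 of HWT for every gene but Orc6. The adjusted p for females ran from 0.19 for Mcm5 to 0.99 for Orc6, and 0 of 10 genes were called by edgeR, where 0.613% of entries were called lower and 0.362% higher. At a recovered unadjusted p under 0.05, 5 of the 10 were lower (Mcm2, dpa, Mcm5, Mcm6 and Mcm7) against 5.92% of all female entries. The median of the 10 genes was -0.26, and that of all 10775 female entries -0.0032. Apart from Orc6, each gene had between 13.9% and 22.4% of all female entries below it, which places them in the lower part of the table but not at its edge.

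The balance of fold changes inside the helicase differed between the tables. By the authors' deposited table for females the fold changes of the Mcm subunits span 0.14, and those of the X-linked subunits lie within the range of the autosomal ones. By the authors' deposited table for males they span 0.88, from Mcm3 to Mcm2, a ratio of 0.542 between those subunits' fold changes. Of the 8 pairs of an X-linked and an autosomal subunit, male differences ran from -0.88 to -0.49 with recovered SEs between 0.16 and 0.21. Female differences of the same pairs ran from -0.05 to 0.10 with SEs between 0.15 and 0.19. Each male difference was at least 3.01 times its SE, and no female difference exceeded 0.551 times its SE. The pairs reuse the same genes and are not separate results. Their SEs take the errors of genes from the same libraries as independent. The X-linked median was lower than the autosomal Mcm median by a log2 difference of -0.69 (SE 0.12, taken as that of the means) in males, a ratio of 0.619. For all entries that difference was -0.51, a ratio of 0.703, so that -0.18 of the gap remained beyond the chromosome medians. In females the corresponding difference between subunits was 0.05 (SE 0.11). These are comparisons of fold changes between genes, not of levels, and no test was made over the list.

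**Figure D2:**
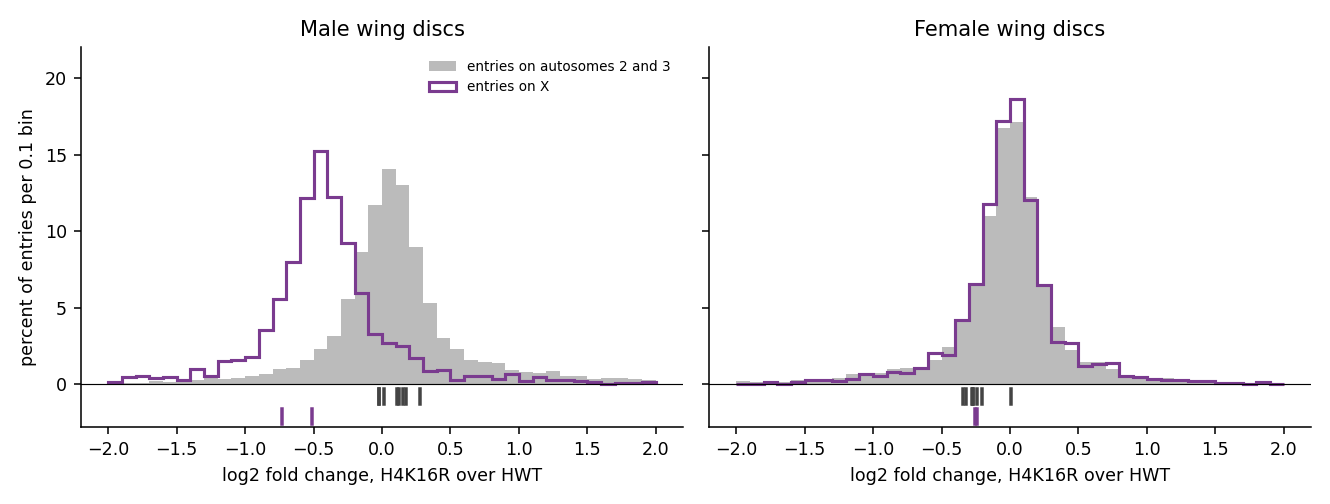
Distribution of log2 fold changes (horizontal axis, cropped at -2 and 2) as percent of entries per bin of 0.1 for chromosomes 2 and 3 (grey) and the X (purple line), with the 10 genes as ticks below: dark for autosomal, purple for X-linked. In males the X-linked ticks lie inside the shifted X distribution (median -0.43) and the autosomal ones around 0.08, whereas in females both sets lie together left of the centre.

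Whether the H4K16R effect differed between the sexes was tested for each gene named in both tables by a two-sided z test of the male minus the female fold change, adjusted over 8854 genes. Orc1 and Mcm2 passed, both with a higher fold change in males. Orc1 had a difference of 0.55 (SE 0.18, adjusted p = 0.038), from 0.28 in males and -0.27 in females per the authors' deposited tables. Mcm2 had a difference of 0.47 (SE 0.16, adjusted p = 0.047), from 0.15 and -0.32 per the authors' deposited tables. Genes called higher in males by this test made up 2.18% of all genes and 2.5% of those on chromosomes 2 and 3. Neither call held after each table was centred on its autosomal median, which lowers every difference by 0.08 on the log2 scale (adjusted p = 0.074 for Orc1 and 0.11 for Mcm2).

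The X-linked subunits, which were called in males and not in females, did not pass the test of the difference itself. Mcm3 had -0.49 (SE 0.23, adjusted p = 0.18) and Mcm6 -0.26 (SE 0.17, adjusted p = 0.40), where 25.9% of X-linked genes were called lower in males. The median difference of all X-linked genes was -0.44, and 83.3% of them had a lower fold change in males. The female values of Mcm3 and Mcm6, -0.24 and -0.25 per the authors' deposited table, make their gap between the sexes smaller than their male fold changes. With SEs recovered from a t distribution with 4 degrees of freedom and a difference tested with 8, Mcm3 passed (adjusted p = 0.028) and Mcm6 did not (adjusted p = 0.061). That setting makes the recovered SEs smaller, most so where p in a table was small, as for Mcm3 and Mcm6 in males. The share of X-linked genes called with it is not given here, and the 25.9% above belongs to the z test. Of the 8 autosomal genes, 7 had a higher fold change in males. The median of the 8 differences was 0.34, where the median of all genes on chromosomes 2 and 3 was 0.07 and 58.7% of those genes had a higher male value. The exception was Orc6, at -0.03 with an SE of 0.42. The remaining autosomal members, Orc5 (0.45), Orc2 (0.35), dpa (0.33), Mcm5 (0.32) and Mcm7 (0.28), had adjusted p between 0.12 and 0.38.

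**Figure D3:**
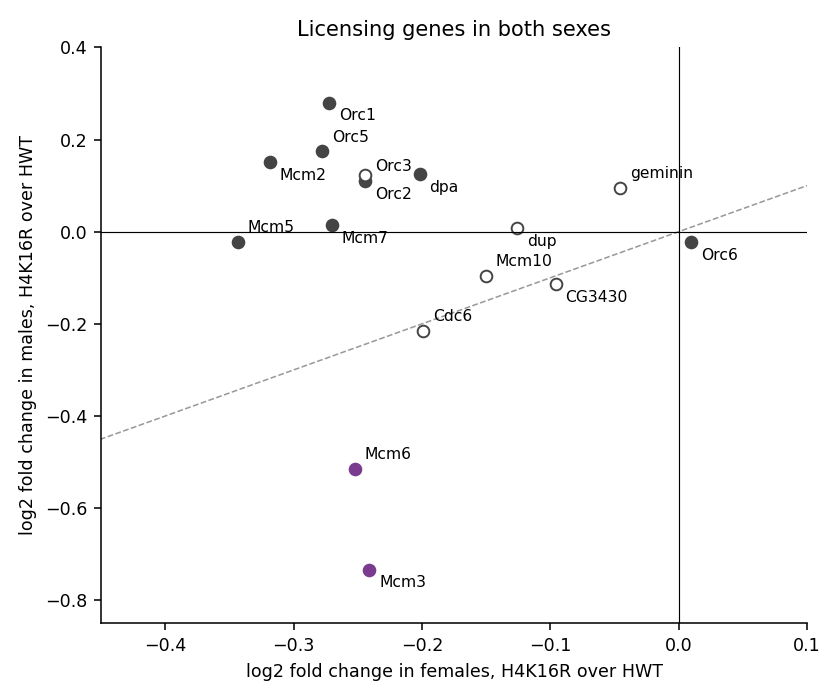
Log2 fold change in males (vertical axis) against that in females (horizontal axis) for the 10 genes (filled; purple for X-linked) and the 6 other licensing genes measured in both sexes (open); the dashed line marks equal values. Mcm3 and Mcm6 lie below the line and 7 of the 8 autosomal members above it.

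Entries within 50 kb of Mcm3 and Mcm6 were lower in males about as often as on the X as a whole, where 85.5% of entries lay below 0 and 44.6% were called lower. Neighbour counts include entries that share bases with a member, and a value over such an entry can hold the member's own reads. Within 50 kb of Mcm6, 16 of 17 other entries lay below 0 per the authors' deposited table for males, 8 of them called, with a median of -0.42. Its nearest named neighbours, CG3198 and the respiratory chain gene ND-ASHI, had -0.42 (adjusted p = 0.0022) and -0.38 (adjusted p = 0.083) per the authors' deposited table for males. Within 50 kb of Mcm3, 8 of 9 entries lay below 0 and 4 were called, with a median of -0.39, per the authors' deposited table for males. Its neighbour Rnp4F, an RNA-binding protein gene, had -0.72 (adjusted p = 1.08e-05), close to Mcm3 itself, and CG3309 had -0.55 (adjusted p = 0.053), per the authors' deposited table for males.

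In females these neighbours lay closer to 0 than the helicase genes. Rnp4F, CG3309, CG3198 and ND-ASHI had -0.04, -0.04, -0.05 and -0.05 per the authors' deposited table for females, against -0.24 for Mcm3 and -0.25 for Mcm6. The medians of the female entries within 50 kb were -0.04 around Mcm3 and -0.05 around Mcm6. In males 1 of 9 neighbouring entries was lower than Mcm3 and 5 of 17 were lower than Mcm6, and in females 2 of 9 and 2 of 18. Around the autosomal members, again with overlapping entries included, the medians within 50 kb ran from -0.18 (Orc5) to 0.18 (dpa, the value of the unnamed entry that contains it) in males and from -0.04 (Orc6) to 0.15 (Mcm7) in females. The genes dpa and Orc1 are 22.3 kb apart, so most of their neighbours are the same.

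**Figure D4:**
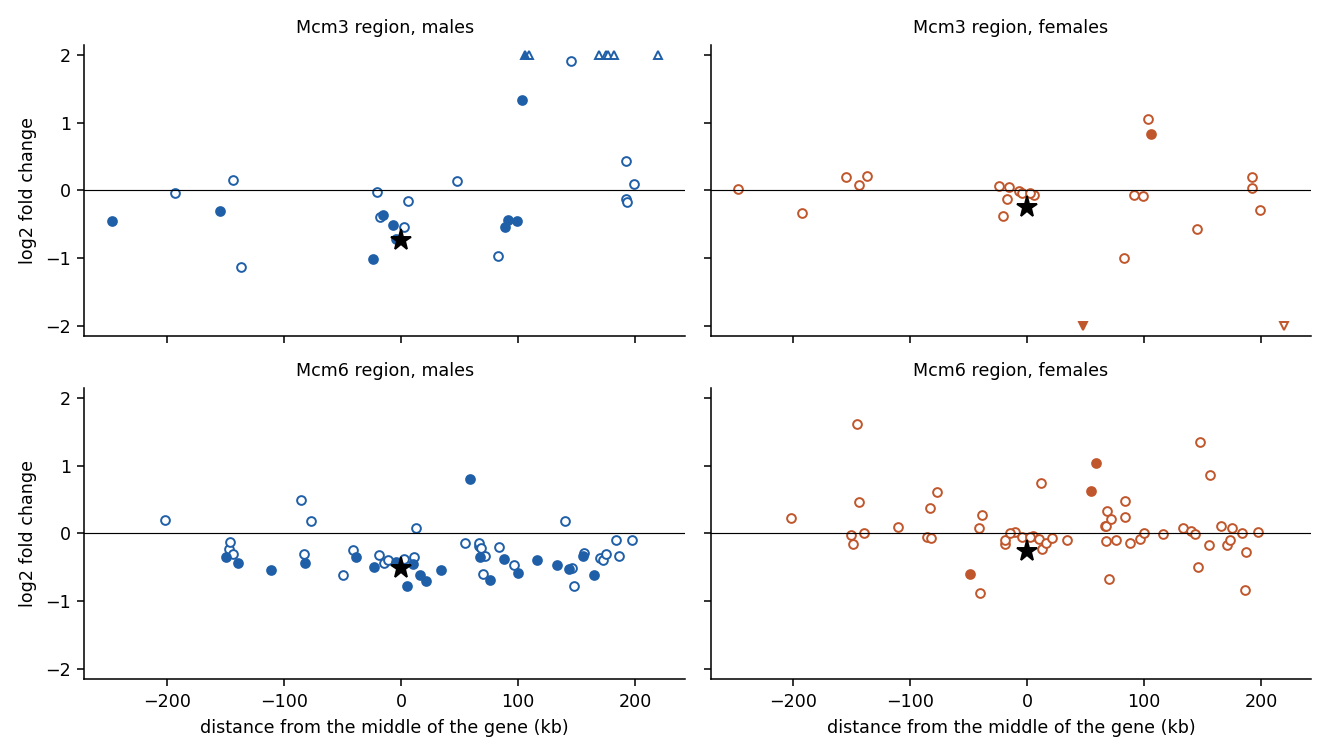
Log2 fold change of each entry (vertical axis) by the distance of its middle from the middle of Mcm3 or Mcm6 (horizontal axis, kb), in males (blue) and females (orange); stars mark the helicase gene, filled points are called entries, and triangles lie beyond 2 or -2. Of the male entries within 250 kb, 49 of 55 lie below 0 around Mcm6 and 18 of 31 around Mcm3, with medians of -0.35 and -0.12, where 85.5% of X-linked entries lie below 0 and their median is -0.43.

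Some entries share bases with a member, and their reads cannot be told apart where counting did not use strand, which the sources used here do not state. Mcm6 lies within an unnamed entry of 213364 bases that had -0.35 (adjusted p = 0.0016) per the authors' deposited table for males, and its female counterpart of 219398 bases had 0.07 (adjusted p = 0.84). The gene dpa lies within an unnamed male entry of 17830 bases that had 0.18 (adjusted p = 0.049) per the authors' deposited table. The ends of Mcm3, Orc1, Orc2, Orc5 and Orc6 overlap the entries of CG3309, PIG-G, rdx, GatC with PolG2, and Sting by 15 to 105 bases. The entry next to Orc5, which GatC and PolG2 share, was called higher in males at 0.40 (adjusted p = 0.037) per the authors' deposited table. Mcm2, Mcm5 and Mcm7 overlap no other entry.

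The other licensing genes, all autosomal, were not called in either sex or in the test of the difference. In males 7 of 8 were measured, with a median of -0.10, and in females 6 of 8, with a median of -0.14. Orc3, whose interval is shared in full with CG34315, had 0.12 in males and -0.24 in females per the authors' deposited tables, close to the values of Orc2. Cdc6, the loading ATPase, had -0.22 and -0.20, and Mcm10, a fork factor that joins after loading, had -0.10 and -0.15, per the authors' deposited tables for males and females. The Cdt1 gene dup had 0.01 and -0.13, and geminin, which encodes the inhibitor of Cdt1, had 0.10 and -0.05, per the authors' deposited tables. CG3430 had -0.11 and -0.10 per the authors' deposited tables. The Mcm8 gene rec, which acts in meiotic crossing over, was measured in males at -0.26 (adjusted p = 0.13) per the authors' deposited table. Orc4 had no matching interval.

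A further list held genes of helicase activation and other replication genes such as Gnf1. Of its 4 X-linked genes, 3 were called lower in males, where 44.6% of X-linked entries were. Of its 5 autosomal genes 0 were, where 321 of 9472 entries on chromosomes 2 and 3 were. Of all 9 measured genes of this list, 3 were lower and 0 higher per the authors' deposited table for males. Of all male entries, 10.3% were lower and 5.35% higher. The lower genes were Psf3 (-1.11) of the GINS complex, the helicase cofactor Cdc45 (-0.82) and mus101 (-0.61), the fly TopBP1, per the authors' deposited table. The fourth X-linked gene, the kinase gene Cdc7, had -0.32 (adjusted p = 0.12) per the authors' deposited table. In females 0 of 9 were called, with a median of -0.09 per the authors' deposited table. Cdc45 also passed the difference test (-0.72, adjusted p = 0.019).

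Of 26 measured genes of the E2F pathway and its S phase targets, 4 were lower and 2 higher in males, with a median of 0.02, near the shares of 10.3% and 5.35% over all entries. The retinoblastoma-family gene Rbf (-0.47) and its complex partner gene mip130 (-0.44), both X-linked, the Cdc25 phosphatase gene stg (-0.31) and mip40 (0.36) had the largest called values per the authors' deposited table for males. In females 0 of 28 were called, 25 lay below 0 and the median was -0.12, where 50.5% of all female entries lay below 0 and 0.613% were called lower. RnrL, the large subunit of ribonucleotide reductase, passed the difference test at 0.38 (adjusted p = 0.041), higher in males.

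Replication timing at the 10 genes was early to intermediate and did not shift by the threshold of 0.1 in any mutant. Values are those of the 100 kb window centred nearest each gene, on the log2 scale of S over G1, and a window holds many genes. In HWT males 9 of the 10 windows lay above the median of all windows on chromosomes 2, 3 and X, and dpa (0.13) and Orc1 (0.13), which share most of a window, replicated earlier than 98.5% and 99.0% of windows. Mcm5 (-0.0056) was the latest, ahead of 39.2% of windows. Between H4K16R and HWT, 0 of 10 genes were shifted in males and 0 of 10 in females, where 1.86% and 2.73% of windows were. Between H3K9R and HWT females 0 of 10 were shifted, where 2.2% of windows were.

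Differences below the threshold ran in opposite directions for the X-linked subunits in the 2 sexes. In males the windows of Mcm3 and Mcm6 had H4K16R minus HWT differences of -0.06 and -0.03, where the median of X windows was -0.02. In females the same windows had 0.04 and 0.04, where the median of X windows was 0.0064. HWT females have different values in the H4K16R and the H3K9R table, -0.01 and 0.02 for Mcm3 and 0.07 and 0.12 for Mcm6. These gaps are about as large as the differences above, but they include an offset between the 2 profiles. Their X medians were 0.0019 and 0.033. A constant offset does not enter differences taken within 1 table. Mcm3 had values of 0.08 in HWT males and 0.02 in H4K16R males, ahead of 79.6% and 51.5% of windows. In females its window was ahead of 37.3% and 39.5% of windows in the HWT profiles of the H4K16R and H3K9R tables and of 39.2% in yw, and of 57.2% in H4K16R and 61.3% in H3K9R females. Mcm6 had 0.07 in HWT males and 0.04 in H4K16R males, ahead of 71.3% and 59.8% of windows. Windows of autosomal members moved in rank as well. Between HWT and H4K16R females that of Orc2 went from ahead of 51.3% of windows to 85.9%, and that of Orc5 from 91.8% to 62.6%. Among autosomal members the differences nearest the threshold were those of Orc1, dpa and Orc2 in H4K16R females, at 0.09, 0.07 and 0.07, and of Orc2 in H3K9R females, at 0.06. With 1 value per group, whether these differences exceed the spread between libraries was not tested.

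**Figure D5:**
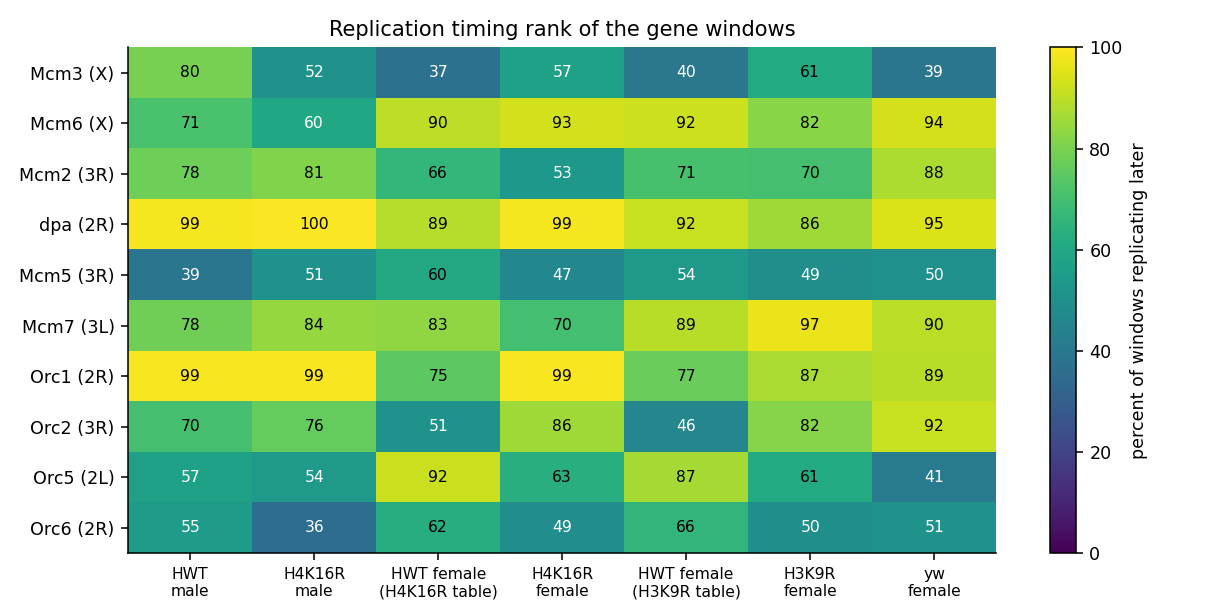
Timing rank of the window of each gene (rows, chromosome arm in parentheses) in the 7 group profiles (columns), as the percent of windows on chromosomes 2, 3 and X that replicate later in that profile; yellow is early. The windows of dpa and Orc1 are the earliest in males and in H4K16R females, and that of Mcm3 falls from 79.6% in HWT males to 51.5% in H4K16R males. Between HWT and H4K16R females the window of Orc2 rises from 51.3% to 85.9% and that of Orc5 falls from 91.8% to 62.6%.

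Marker lists describe the tissue in the same tables. Of 17 wing disc markers, 16 had an entry in each sex, all but ci; 3 were lower in males (ap and the X-linked ct and sd) and 0 called in females. Of all male entries, 10.3% were lower and 5.35% higher. Most of the 16 wing disc markers lay below 0 in males (14, median -0.09), where 47.2% of all entries did. Only 2 of 16 did in females (median 0.07), where 50.5% of all entries lay below 0. Their male minus female difference was below 0 for 15 of 16 (median -0.18), where that of 4302 of all 8854 genes was. The X-linked sd and ct and the autosomal ap passed its test, where 25.9% of X-linked genes were called lower. Among the 8 autosomal ORC and Mcm genes, 7 had a higher fold change in males, where 58.7% of genes on chromosomes 2 and 3 did. The 6 fat body markers that were lower in males had 0 calls in females, with a median of -0.88 per the authors' deposited table. Glue genes of the salivary gland had medians of -2.89 and -0.95 over 5 measured, with 0 called in either sex. Hemocyte and tracheal markers had 0 called in either sex. Among adult muscle precursor markers 1 of 7 was lower (Ama) and 1 higher (kirre) in males, and among 4 neuronal markers 1 was lower (elav) and 1 higher (brp). The part of these cell types in the values of the ORC and Mcm genes was not tested.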

How the data were processed

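RNA-seq (12 libraries) and Repli-seq (18 libraries) of wing discs were grouped by sample titles, where replicates are numbered without saying whether crosses were separate, and p-values then reflect library spread that may be technical. Ribosomal RNA was removed and a stranded kit with ERCC spike-ins used, per the labels' protocols; how the spike-ins entered is not stated there. Tools listed without roles, per the submitters' processing notes, are Bowtie2 2.3.2, TopHat, SAMtools 1.6, edgeR, Cufflinks 2.2.1, limma and bedtools, with build dm6. For RNA the authors deposited, per the file headers, an edgeR log2 fold change with its adjusted p-value for each interval. The authors deposited timing in windows of 100 kb every 10 kb (yw in rows of 10 kb). The deposited timing values of the female H4K16R table, for both HWT and H4K16R, are a linear ratio, of which log2 was taken. The others were taken to be log2, although no header names the base.

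Intervals were named by reciprocal overlap above 0.9 with RefSeq Release 6 genes (9345 of 10775 female and 9565 of 11505 male). Assuming Benjamini-Hochberg, each unadjusted p was computed by multiplying the adjusted one by its rank and dividing by the entry count, and SEs by a normal approximation. Ties in adjusted p, which touch 6 members in males and 7 in females, make p and SE upper bounds. Male minus female effects were tested by a two-sided z test with Benjamini-Hochberg adjustment over all shared genes. On simulated tables of 8854 genes, with 100 changed by 1 and 100 by -0.5 in males, that test called 25% and 5% of them and 0.0116% of unchanged genes. The simulation used the same recovered SEs as the test, so its rates cannot show whether those SEs are right. Under this adjustment the rates also depend on the share of changed genes. Because 25.9% of X-linked genes were called lower in males in the data, the simulated 25% and 5% need not hold there. Depth per library is unknown. The members and lists were chosen with earlier results of these data known. Named genes are the members, other licensing genes, up to 4 called genes per further list and the nearest named genes beside the X-linked members. Thresholds, Holm adjustment, centring, overlap and timing settings were varied. Planned models per library were replaced by what these units allow, and sequence comparisons were not made. Software was scipy 1.17.1, pandas 2.3.3, matplotlib 3.10.9 and numpy 2.4.6 under Python 3.11.15.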

Additional observations from a re-analysis of the deposited data

Results flagged for a closer look

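The test of the male minus the female effect marked 2 of the 10 genes for a closer look. It called 2.18% of all genes, and 2.5% of those on chromosomes 2 and 3, higher in males. Orc1 had a difference of 0.55 on the log2 scale and Mcm2 of 0.47, both higher in males. Each rests on opposite signs in the 2 tables (0.28 and -0.27 for Orc1, 0.15 and -0.32 for Mcm2 in the authors' deposited tables), of which neither value was called in its own table. Neither difference passed the z test after centring on autosomal entries (adjusted p = 0.074 for Orc1 and 0.11 for Mcm2). Fat body markers were also lower in H4K16R males (median -2.62 per the authors' deposited table), and their part in the differences of Orc1 and Mcm2 was not tested.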

How the results depend on the processing

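Other overlap settings could not change a member's value, since each matches over its whole length, centring within a sex left its p-values as they were, and stricter thresholds could only remove calls. With Holm adjustment 0 members were called in males (adjusted p = 0.75 for Mcm3 and 1 for Mcm6), in place of 2. The test between the sexes called 0 members at an adjusted p of 0.01 and 0 after centring on autosomal entries (Orc1 0.47 and Mcm2 0.39), in place of 2, and 3 with t-based errors, when Mcm3 passed. The share of all genes called with t-based errors is not given here. Mcm7 in males changed sign to -0.062 on centring on autosomal entries and to -0.0080 on all entries. The male gap between X-linked and autosomal Mcm genes was -0.18 relative to the chromosome medians. At a timing threshold of 0.05, 2 genes were shifted in H4K16R males, 3 in H4K16R females and 1 in H3K9R females, in place of 0. The share of all windows past 0.05 is not given here. At 0.1 the shares were 1.86% in H4K16R males, 2.73% in H4K16R females and 2.2% in H3K9R females. Whether the counts at 0.05 exceed those of windows in general was therefore not tested, and they are not evidence of shifts at these genes. Beyond these constructions the cause was not tested. No paired analysis was possible because the files hold no values per library, and for the same reason leaving out replicates, DESeq2 and filters on low counts were not run. The timing window nearest the start site was not run for want of strand. Depth per library is unknown, so what it limits cannot be stated. Orc6 had SEs of 0.27 and 0.33.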
